A study of Mus musculus with 30 samples.

Results

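The transcripts described here encode 10 regulators of the G1 phase of the cell cycle: the D-type cyclins *Ccnd2* and *Ccnd3*, their kinases *Cdk4* and *Cdk6*, cyclin E1 (*Ccne1*), the inhibitors *Cdkn1a* (p21), *Cdkn1b* (p27), *Cdkn2c* (p18) and *Cdkn2d* (p19), and the transcription factor *E2f2*. They are the rows of a gene count table whose Ensembl identifiers carry these symbols in the GRCm38 annotation, 10 of the 54532 genes listed. RNA was sequenced from murine erythroleukemia (MEL) cells, a transformed mouse line arrested at an early erythroid stage that makes hemoglobin when it is treated with dimethyl sulfoxide (DMSO). WT cells and Abcb10 knockout cells, called Abcb10-null below, were collected untreated at day 0 and after 2 or 5 days in 1.5% DMSO, with 5 libraries in each of the 6 groups and 30 libraries in all. *Abcb10* encodes a mitochondrial inner membrane transporter of the ABC family. The Abcb10-null cells are a single clone made with a lentiviral CRISPR/Cas9 construct, so a difference between the genotypes cannot be told apart from a difference of that clone. All 6 groups grew in the same medium, the day 0 groups received no DMSO, and the labels name each library a biological replicate without saying how the cultures were separated, so p-values measure the spread between these libraries.

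In G1, cyclins D2 and D3 bind CDK4 or CDK6 and phosphorylate the retinoblastoma family, which frees E2F factors to switch on cyclin E and the genes of DNA replication. The INK4 proteins p18 and p19 bind CDK4 and CDK6 and keep D cyclins off them, while the CIP/KIP proteins p21 and p27 act mainly on cyclin E and cyclin A complexes with CDK2. Erythroid precursors pass through rapid divisions and then leave the cycle as they fill with hemoglobin, and in erythroid cells cyclin D3, p18, p27 and E2F2 are each known to take part in that last step.

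Total counts ranged from 9906783 to 20157768 per library. *Cdkn1a* was low throughout, with 13 to 78 counts in a library, and the other members never had fewer than 301. *Abcb10* itself was lower in the Abcb10-null libraries by 0.68, 1.54 and 2.54 on the log2 scale at days 0, 2 and 5 (edgeR quasi-likelihood test, adjusted p = 1.16e-07, 0.000551 and 5.51e-08), and its transcript was still counted in all of them. Levels are given as CPM, counts scaled to a common library size. Of 10 erythroid marker genes 9 averaged at least 1 CPM at day 0, and the sum over the 10 lay between 2710 and 2920 CPM in WT at day 0 and between 11900 and 23700 CPM at day 5. In Abcb10-null cells the same sum was 2760 to 3160 CPM at day 0 and 5360 to 7840 CPM at day 5. The 6 lymphoid markers summed to at most 4.17 CPM in any library, the 6 neutrophil and monocyte markers to at most 7.54 CPM and the 6 stromal and epithelial markers to at most 8.08 CPM, whereas the 4 megakaryocyte markers, mainly *Itga2b* and *Pf4*, summed to 158 to 591 CPM. In 4 libraries the typical gene lay 0.392 to 0.424 log2 units from the other replicates of its group, against 0.116 to 0.316 in the other 26. These are replicate 2 of Abcb10-null day 2, replicates 2 and 5 of WT day 5 and replicate 4 of Abcb10-null day 5, and values without them are given where they change a result. The day 2 libraries also fell into subgroups, by chi-square per degree of freedom between the counts of 2 libraries. In WT, replicates 1 and 2 differed by 6.78 from each other and by 76.8 to 88.1 from replicates 3 to 5. In Abcb10-null cells, replicates 1, 3 and 4 differed by 10.9 to 40.2 among themselves. They differed by 93.6 to 141 from replicates 2 and 5. The part of these subgroups in the day 2 values of the members was not tested.

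Per kilobase of exon, which allows genes to be compared with each other, *Cdk4* was the most abundant member in both genotypes at day 0, at 189 ± 12.5 CPM per kilobase in WT (SD, n = 5) and 157 ± 16.2 in the null cells. *Cdkn2d* came next in both, at 53.6 ± 5.73 and 52.1 ± 3.79 CPM per kilobase, and did not overlap with *Cdk4*. *Ccne1* (39.3 ± 1.45), *Ccnd3* (28.5 ± 1.33), *Cdkn2c* (23.5 ± 2.67), *Ccnd2* (16.9 ± 1.23), *Cdkn1b* (13.3 ± 1.72), *Cdk6* (9.22 ± 1.13) and *E2f2* (8.44 ± 0.805) followed in WT, and *Cdkn1a* was last in every group, at 0.473 ± 0.15 CPM per kilobase in WT at day 0. At this day the ranges of *Ccnd3* and *Cdkn2c*, of *Ccnd2* and *Cdkn1b*, and of *Cdk6* and *E2f2* overlapped. By day 5 the order in WT had become *Cdkn2d* (62.9 ± 6.88), *Cdkn1b* (49.3 ± 4.09), *Cdk4* (48.9 ± 8.61), *Cdkn2c* (46.4 ± 4.59), *Ccnd3* (40 ± 4.15), *Ccnd2* (28.4 ± 7.27), *Ccne1* (26.6 ± 2.06), *E2f2* (16 ± 3.58) and *Cdk6* (4.4 ± 1.95 CPM per kilobase), and each of the leading 6 overlapped with the next. In Abcb10-null cells at day 5 *Cdkn2d* (58.9 ± 11.6), *Cdkn1b* (55.7 ± 10.8) and *Cdk4* (46.5 ± 6.11) again led, but *Cdkn2c* stood sixth at 21.9 ± 1.74, *Ccne1* at 14 ± 3.03 and *E2f2* at 8.02 ± 2.61 CPM per kilobase.

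**Figure D1:**
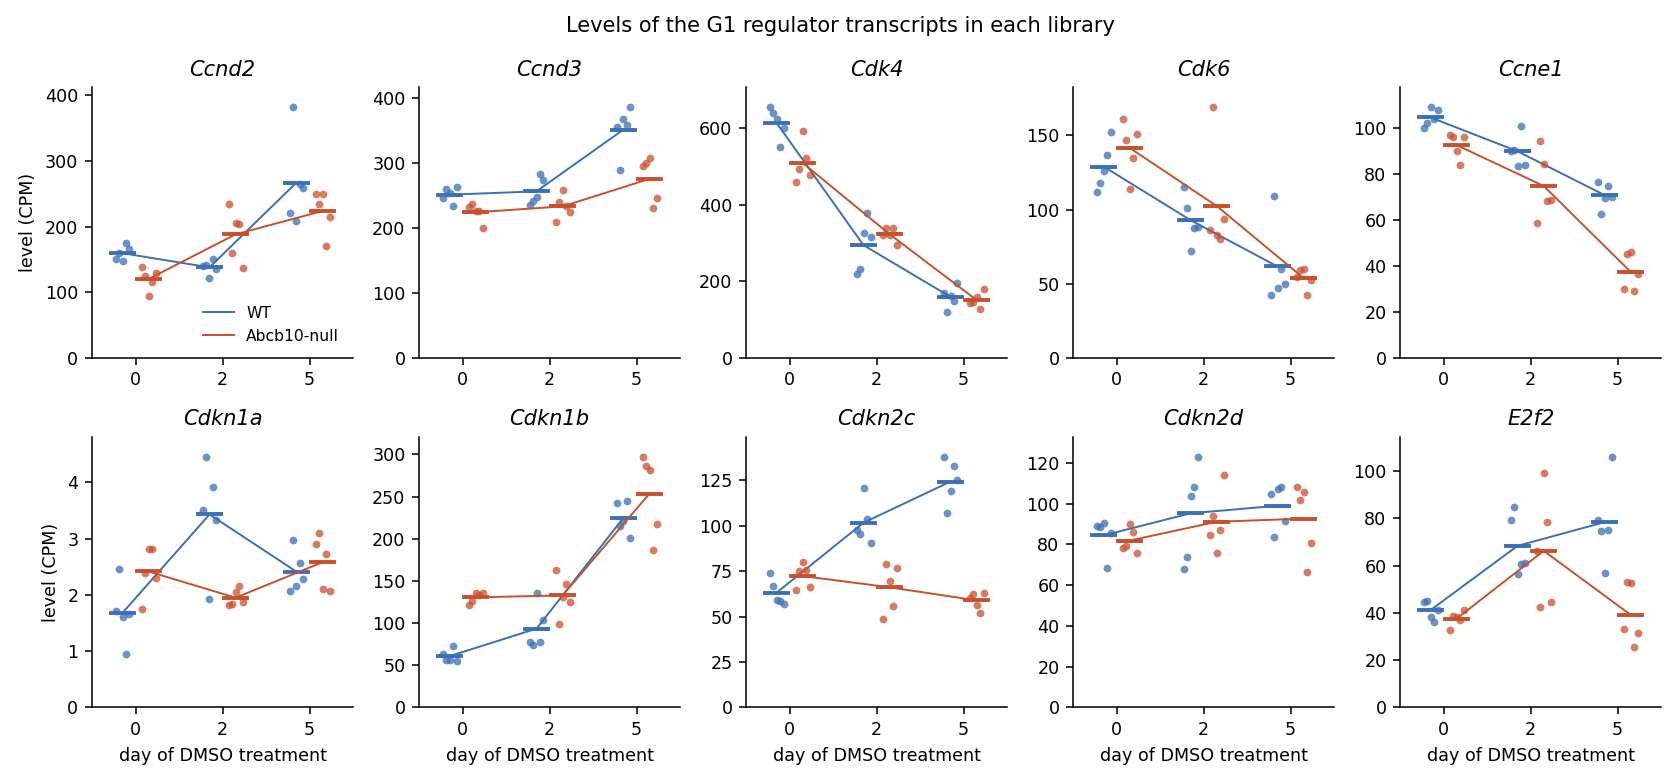
Level of each of the 10 transcripts in CPM (y axis, from 0) by day of DMSO treatment (x axis) in WT (blue) and Abcb10-null (orange) MEL cells; points are single libraries, 5 per group, short bars are group means and lines join the means. *Cdk4* falls steeply in both genotypes, *Cdkn1b* starts higher in Abcb10-null cells and ends at similar levels, and *Cdkn2c* separates with time, at 125 CPM (WT) and 58.9 CPM (Abcb10-null) by day 5.

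Differentiation of WT cells over 5 days moved 9 of the 10 members. *Cdkn1b*, *Cdkn2c*, *E2f2*, *Ccnd2*, *Ccnd3* and *Cdkn2d* rose and *Cdk4*, *Cdk6* and *Ccne1* fell, while *Cdkn1a* was 1.51-fold higher without passing the test (adjusted p = 0.0692). A call here means an adjusted p under 0.05 in edgeR's quasi-likelihood test, adjusted by Benjamini-Hochberg across every gene that was tested. Between days 0 and 5 in WT, 36.5% of the 12723 genes tested rose and 34.7% fell by the same rule, so calls were common among all genes. From day 0 to day 2, *Cdkn1a*, *Cdkn1b*, *Cdkn2c* and *E2f2* rose (4 of 10 members, against 31.5% of genes) and *Cdk4* and *Cdk6* fell (2 of 10, against 30.7%), shares that became 36.7% and 25.7% with upper quartile scaling. From day 2 to day 5, *Cdkn1b*, *Ccnd2* and *Ccnd3* rose (3 of 10, against 17% of genes) and *Ccne1* and *Cdk4* fell (2 of 10, against 16.4%). The median log2 fold change of the members from day 0 to day 5 in WT was 0.573, beside 0.0229 for all genes tested.

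In Abcb10-null cells 7 members changed over the same 5 days. *Cdkn1b*, *Ccnd2*, *Ccnd3* and *Cdkn2d* rose (4 of 10, against 33.9% of genes), *Cdk4*, *Cdk6* and *Ccne1* fell (3 of 10, against 33.3%), and *Cdkn2c* and *E2f2* did not pass the test in either direction. From day 0 to day 2 *Ccnd2* and *E2f2* rose (2 of 10, against 23.1% of genes) and *Cdk4* fell (1 of 10, against 20.1%). Without the library of Abcb10-null day 2 that stands apart, replicate 2, *Ccne1* and *Cdk6* also fell in this step and 5 members were called, while the share of all genes called in either direction went from 43.1% to 48.5%. From day 2 to day 5 *Cdkn1b* and *Ccnd3* rose (2 of 10, against 14.4% of genes) and *Ccne1*, *Cdk4*, *Cdk6* and *E2f2* fell (4 of 10, against 16.6%). The median log2 fold change of the members from day 0 to day 5 was 0.195 in these cells, beside 0.0135 for all genes.

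Set against WT at the same day, Abcb10-null cells had more *Cdkn1b* (1 of 10 members higher, against 19.7% of genes) and less *Ccnd2*, *Cdk4*, *Ccne1* and *Ccnd3* (4 of 10 lower, against 16.2%) before DMSO was added. At day 2 *Cdkn2c* and *Cdkn1a* were lower (2 of 10, against 16.9% of genes) and none was higher (0 of 10, against 14.9%). At day 5 *Cdkn2c*, *E2f2*, *Ccne1* and *Ccnd3* were lower (4 of 10, against 17.8% of genes) and none was higher (0 of 10, against 19.8%). At an unadjusted p under 0.05, 6 members passed at day 2 (against 44.2% of genes) and 4 at day 5 (against 47.1%). DESeq2 called 4 at each of these days, all of them lower, against 36.7% and 41.1% of genes in either direction. *Ccnd3* and *Ccne1* were called lower at both day 0 and day 5, by 1.12-fold and 1.14-fold at day 0. At day 2 the count of members called depended on replicate 2 of Abcb10-null cells, and without it 5 members passed the test, with *Cdkn1b* and *Ccnd2* then called higher and *Ccne1* lower. The share of all genes called in either direction went from 31.8% to 40.6% with the same library left out. With upper quartile scaling the shares of genes higher and lower were 17.1% and 19.7% at day 0, 11.4% and 18.4% at day 2, and 18.2% and 20% at day 5. The comparisons at days 0, 2 and 5 share no library, but each shares its libraries with the comparisons over time.

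**Figure D2:**
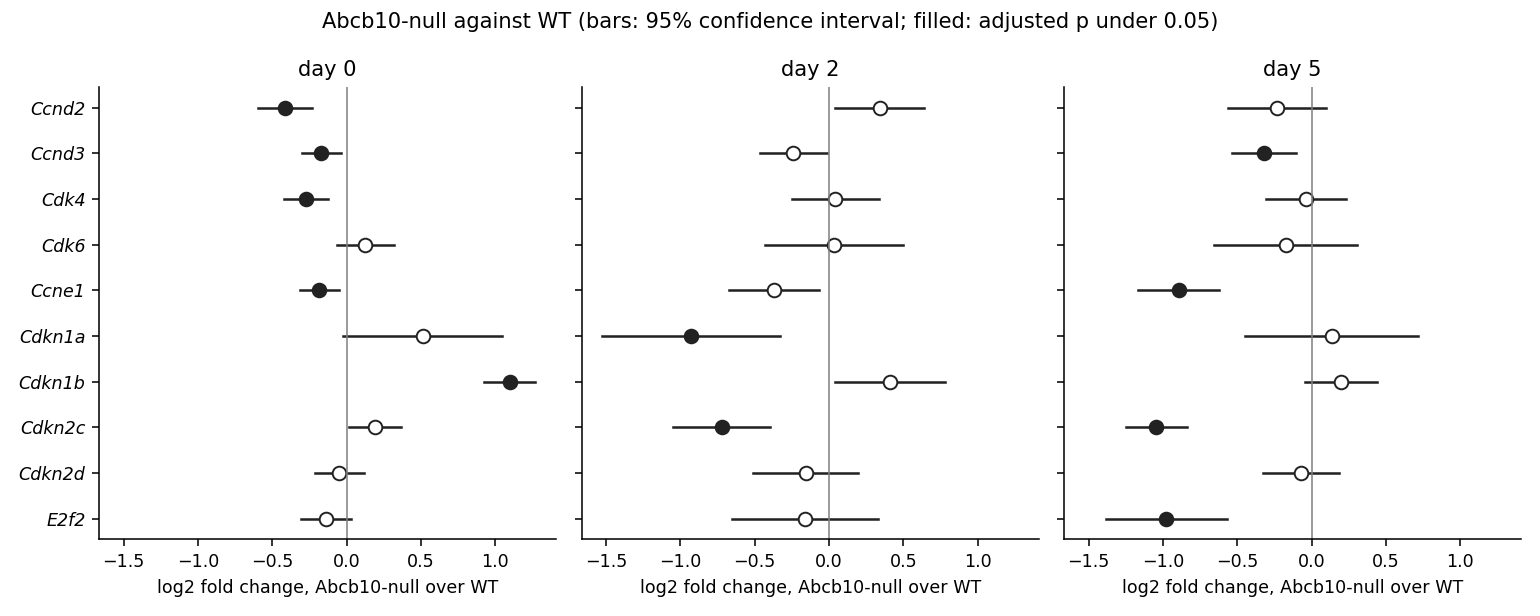
Log2 fold change of Abcb10-null over WT cells (x axis) for each member (y axis) at days 0, 2 and 5; points are edgeR estimates from 5 against 5 libraries, bars are 95% confidence intervals and filled points have an adjusted p under 0.05. *Cdkn1b* is the point far to the right at day 0 (1.10), and *Cdkn2c* (-1.05), *E2f2* (-0.98) and *Ccne1* (-0.89) lie far to the left at day 5.

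Whether the change over time itself differed between the genotypes was tested as an interaction of genotype and day, over 20 libraries for each pair of days. Between days 0 and 2 the change was more positive in Abcb10-null cells for *Ccnd2* (1 of 10, against 12% of genes) and more negative for *Cdkn1a*, *Cdkn2c* and *Cdkn1b* (3 of 10, against 10.8%). Between days 0 and 5 it was more negative for *Cdkn2c*, *Cdkn1b*, *E2f2* and *Ccne1* (4 of 10, against 14.7%) and more positive for none (0 of 10, against 16.8%). Between days 2 and 5 edgeR called no member in either direction, with 1.77% of genes more positive and 2.94% more negative. At an unadjusted p under 0.05, 4 members and 3020 of 13956 genes passed between days 2 and 5, and DESeq2 called 1 member, *Ccne1*, against 9.14% of genes. With the 4 libraries that stand apart left out, *Ccnd2* was also called between days 0 and 5 (0.46, adjusted p = 0.0114, against 0.20, adjusted p = 0.445, with them). Under upper quartile scaling the shares of all genes more positive and more negative became 8.93% and 12.1% between days 0 and 2, and 2.78% and 2.22% between days 2 and 5. All 3 interactions use the same WT and Abcb10-null libraries in part, so they are not separate lines of evidence.

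The promoters of *Ccne1*, *Cdkn2c* and *E2f2* are shown, chosen after the values were seen as the 3 members lower by more than 1.5-fold in Abcb10-null cells at day 5. Each is the 250 bases before a RefSeq transcription start on GRCm38.p6, on the strand of the gene, 5′ to 3′, with matches to a GC box, a CCAAT box or an E2F octamer on either strand in capitals.
Ccne1: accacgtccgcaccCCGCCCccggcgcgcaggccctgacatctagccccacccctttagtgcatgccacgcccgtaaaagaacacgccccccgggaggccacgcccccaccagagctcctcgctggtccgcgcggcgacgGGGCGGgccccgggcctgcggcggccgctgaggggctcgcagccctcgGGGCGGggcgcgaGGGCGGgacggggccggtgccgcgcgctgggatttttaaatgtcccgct
Cdkn2c: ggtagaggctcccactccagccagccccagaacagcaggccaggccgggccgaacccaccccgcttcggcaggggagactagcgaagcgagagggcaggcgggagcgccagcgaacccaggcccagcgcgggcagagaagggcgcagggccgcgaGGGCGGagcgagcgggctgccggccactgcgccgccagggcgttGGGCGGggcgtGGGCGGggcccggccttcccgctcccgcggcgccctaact
E2f2: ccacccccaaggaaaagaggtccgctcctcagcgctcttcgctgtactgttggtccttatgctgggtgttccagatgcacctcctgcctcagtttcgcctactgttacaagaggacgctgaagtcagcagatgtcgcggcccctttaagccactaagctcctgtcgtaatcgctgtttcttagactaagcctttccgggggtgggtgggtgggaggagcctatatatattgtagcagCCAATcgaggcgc
E2f2 site after the start: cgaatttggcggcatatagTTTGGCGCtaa
These are chr7:38107491-38107740 (minus strand) for *Ccne1*, chr4:109666757-109667006 (minus strand) for *Cdkn2c* and chr4:136172024-136172273 (plus strand) for *E2f2*. The letters of the GC box were GGGCGG and those of the CCAAT box its name. The E2F octamer was searched in 4 spellings: TTTCCCGC was the first, TTTGGCGC the second, TTTCGCGC the third and TTTGCCGC the last. *E2f2* was the 1 member with a match, 40 bases into the transcribed part by the RefSeq start shown, within the stretch at chr4:136172294-136172323 printed last. The GENCODE position of *E2f2* begins later, at 136172394, so by that annotation the match lies before the gene. The GENCODE position of *Cdkn2c*, on the minus strand, reaches 109667189, so the whole stretch printed for it lies within the gene. That of *Ccne1* reaches 38107534, so the part of its stretch nearest the RefSeq start lies within the gene too. Before the RefSeq start, *Ccne1* had 4 GC boxes, *Cdkn2c* had 3, and the start of *E2f2* shown had none but held 1 CCAAT box close by. *Cdkn2c* and *E2f2* each have a second RefSeq start whose window is not shown. Before its start the second *E2f2* window held 1 GC box and 3 CCAAT boxes, and that of *Cdkn2c* held neither. RefSeq windows from 250 bases before to 50 after a start were found for 9 of the 10 members (13 windows), and 9 of the 13 held a GC box, 6 a CCAAT box, 1 an E2F octamer and 0 the GATA hexamer AGATAA. Among all 32851 mouse windows of the same length 35.7%, 37.4%, 2.26% and 11.2% held these letters. No match of one motif overlapped another in the stretches printed, and a match describes letters only.

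Cyclin D2 (*Ccnd2*, ENSMUSG00000000184, GRCm38 chromosome 6, 127125162-127152193, minus strand) is a partner of CDK4 and CDK6 that answers to growth factor signals. In WT cells its level was 150, 159, 147, 175 and 166 CPM at day 0, 140, 141, 122, 150 and 136 CPM at day 2, and 221, 382, 209, 265 and 259 CPM at day 5. Abcb10-null libraries had 138, 124, 93.5, 116 and 129 CPM at day 0, 234, 160, 206, 204 and 137 CPM at day 2, and 250, 235, 249, 170 and 215 CPM at day 5. So at day 0 the highest Abcb10-null library lay below the lowest WT library, whereas at day 2 4 of 5 lay above the WT range. WT libraries stepped up between days 2 and 5, without overlap. The log2 fold change of Abcb10-null over WT at days 0, 2 and 5 was -0.41 ± 0.087, 0.34 ± 0.14 and -0.23 ± 0.152 (SE; adjusted p = 0.00115, 0.0787 and 0.245). *Ccnd2* rose 1.61-fold by day 2 in Abcb10-null cells (adjusted p = 0.00167), against a level 1.11-fold lower in WT (adjusted p = 0.143). The difference of these changes was 0.81 ± 0.169 on the log2 scale (adjusted p = 0.00256). Over 5 days it rose 1.76-fold in WT and 2.02-fold in Abcb10-null cells (adjusted p = 0.000249 and 1.61e-07). The library at 382 CPM is replicate 2 of WT day 5, one of those that stand apart. The day 5 difference of -0.23 was -0.076 without it and -0.0077 without all the libraries that stand apart, and passed the test in neither. At day 2 the higher level in Abcb10-null cells passed the test without their replicate 2 or their replicate 5 (log2 fold change 0.39 and 0.43, adjusted p = 0.0418 and 0.0217). The rise from day 2 to day 5 in those cells (0.35, adjusted p = 0.0638) passed it without replicate 1 of day 2 (0.43, adjusted p = 0.0341).

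Cyclin D3 (*Ccnd3*, ENSMUSG00000034165, chromosome 17, 47505051-47599691, plus strand) is the D cyclin best known in erythroid precursors, where it bears on how many divisions precede maturation. WT libraries held 246, 259, 253, 233 and 262 CPM at day 0, 235, 241, 247, 283 and 273 CPM at day 2, and 355, 289, 367, 358 and 385 CPM at day 5. Abcb10-null libraries held 231, 236, 225, 226 and 200 CPM at day 0, 208, 240, 258, 233 and 224 CPM at day 2, and 294, 299, 307, 230 and 245 CPM at day 5. Levels in WT stayed nearly flat to day 2 and stepped up by day 5 without overlap, and the Abcb10-null libraries made a smaller step that overlapped with day 2 and with WT. *Ccnd3* rose 1.47-fold over 5 days in WT and 1.33-fold in Abcb10-null cells (adjusted p = 8.43e-05 and 0.0002). The difference between these rises did not pass the test (-0.13, 95% confidence interval -0.37 to 0.10, adjusted p = 0.408). Abcb10-null cells held less *Ccnd3* than WT by 1.12-fold before DMSO (adjusted p = 0.0386) and by 1.25-fold at day 5 (adjusted p = 0.0222). At day 2 the level was 1.18-fold lower without passing the test (adjusted p = 0.0907). At day 0 the call did not hold without replicate 2 or 5 of WT or replicate 4 or 5 of Abcb10-null cells (log2 fold changes -0.17, -0.16, -0.17 and -0.12, adjusted p = 0.0651, 0.0673, 0.0709 and 0.106). The difference at day 5 no longer passed without replicate 3 of WT or replicate 5 of Abcb10-null cells (-0.30 and -0.28, adjusted p = 0.0594 and 0.0674). With all 30 libraries in a single model the day 0 difference had an adjusted p of 0.24, and with all genes of at least 1 count tested those of days 0 and 5 had 0.082 and 0.24. Under the latter filter the steps from day 2 to day 5 in WT and in Abcb10-null cells also missed the threshold (adjusted p = 0.0588 and 0.162). The rise from day 2 to day 5 in Abcb10-null cells, 1.27-fold (adjusted p = 0.0204), was likewise lost without replicate 1 of day 2 or replicate 1 or 2 of day 5 (0.30, 0.32 and 0.32, adjusted p = 0.0548, 0.0572 and 0.0618). An exact permutation test of the 5 against 5 libraries gave p = 0.0635 for this rise, two-sided.

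*Cdk4* (ENSMUSG00000006728, chromosome 10, 127063534-127067920, plus strand) encodes one of the D cyclin kinases, which starts the phosphorylation of the retinoblastoma protein in G1. Its level in WT was 655, 640, 624, 551 and 601 CPM at day 0, 219, 233, 325, 379 and 315 CPM at day 2, and 169, 119, 162, 149 and 196 CPM at day 5. In the null cells it was 459, 494, 594, 523 and 478 CPM at day 0, 322, 338, 321, 339 and 295 CPM at day 2, and 142, 146, 159, 127 and 180 CPM at day 5. In both genotypes each day lay below the one before without overlap, and at days 2 and 5 the genotypes overlapped. Replicates 1 and 2 of WT day 2, a subgroup over all genes, held 219 and 233 CPM. Replicates 3 to 5 held 315 to 379 CPM. *Cdk4* fell 3.68-fold over 5 days in WT and 3.11-fold in Abcb10-null cells (adjusted p = 1.62e-08 and 5.92e-10), the largest fall of any member in either genotype. The difference between these falls was 0.25 on the log2 scale (95% confidence interval -0.06 to 0.57, adjusted p = 0.214). At day 0 Abcb10-null cells held 1.21-fold less (adjusted p = 0.00554), with 4 of 5 libraries below all WT libraries. At day 5 the log2 fold change was -0.04 (95% confidence interval -0.31 to 0.23). The difference at day 0 did not hold when all 30 libraries shared one fit (adjusted p = 0.165). Between days 0 and 2 the smaller fall in Abcb10-null cells did not pass the test (difference 0.36, adjusted p = 0.12), and it passed without replicate 4 of WT day 2 (0.42, adjusted p = 0.0404). *Cdk4* shares 19.7% of its exon bases with *Tspan31* on the opposite strand, and the strand setting of the counting is not given in the sources used here. *Tspan31* stood at 81.7 ± 4.34 CPM (SD, n = 5) and 82.5 ± 13.4 CPM at days 0 and 5 of WT, and at 81.8 ± 7.61 and 121 ± 14.1 CPM in the null cells. Smaller shares with opposite-strand genes were 4.11% for *Ccnd3* (*Bysl*), 3.91% and 3.95% for *Ccnd2* (*9330179D12Rik* and *Gm43126*) and 2.63% for *Cdk6* (*Gm17590*).

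*Cdk6* (ENSMUSG00000040274, chromosome 5, 3341485-3531008, plus strand) encodes the related kinase, which is prominent in early blood progenitors. WT libraries held 112, 118, 126, 137 and 152 CPM at day 0, 115, 101, 72.2, 87.8 and 88.1 CPM at day 2, and 42.3, 109, 46.8, 59.8 and 49.9 CPM at day 5. Abcb10-null libraries held 161, 147, 114, 135 and 151 CPM at day 0, 86.2, 169, 82.5, 80.4 and 93.9 CPM at day 2, and 54.3, 59.3, 59.9, 42.4 and 52.6 CPM at day 5. The values of 169 and 109 CPM, far above the other 4 of their groups, belong to replicate 2 of Abcb10-null day 2 and replicate 2 of WT day 5, both among the libraries that stand apart. *Cdk6* fell 1.99-fold over 5 days in WT and 2.43-fold in Abcb10-null cells (adjusted p = 0.00135 and 5.95e-09), without overlap in either. It did not differ detectably between genotypes at any day, with log2 fold changes of 0.13 (95% confidence interval -0.07 to 0.32) at day 0, 0.03 (-0.43 to 0.50) at day 2 and -0.17 (-0.65 to 0.31) at day 5. Those at days 2 and 5 changed sign to -0.22 and 0.15 without the libraries that stand apart. The same libraries bore on when the fall was called. The step from day 2 to day 5 in WT was -0.59 (adjusted p = 0.0664) with replicate 2 of day 5 and -0.88 (adjusted p = 0.000892) without it. The step from day 0 to day 2 in Abcb10-null cells was -0.42 (adjusted p = 0.0942) with replicate 2 of day 2 and -0.68 (adjusted p = 0.000152) without it. Between days 2 and 5 *Cdk6* fell 1.78-fold in these cells (adjusted p = 0.00446). The step from day 0 to day 2 in WT, -0.41 (adjusted p = 0.0128), was lost without replicate 3 of day 2 (-0.28, adjusted p = 0.0535) and when all 30 libraries were fitted together (adjusted p = 0.0791).

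Cyclin E1 (*Ccne1*, ENSMUSG00000002068, chromosome 7, 38097984-38107534, minus strand) activates CDK2 at entry into S phase and is itself induced by E2F. Its level in WT was 99.9, 102, 109, 104 and 108 CPM at day 0, 90.1, 90.6, 83.5, 101 and 84 CPM at day 2, and 76.7, 62.6, 69.7, 74.9 and 70 CPM at day 5. The Abcb10-null libraries held 96.8, 96, 89.9, 83.9 and 96 CPM at day 0, 58.7, 94.2, 84.2, 68.2 and 68.5 CPM at day 2, and 30.1, 45, 46.2, 29 and 36.4 CPM at day 5. Abcb10-null libraries lay below all WT libraries at day 0 by a narrow margin and at day 5 by a wide one. The difference from WT at days 0, 2 and 5 was -0.18 ± 0.0624, -0.37 ± 0.14 and -0.89 ± 0.126 (log2, SE; adjusted p = 0.0284, 0.0578 and 0.000184). *Ccne1* fell 1.41-fold over 5 days in WT and 2.29-fold in Abcb10-null cells (adjusted p = 0.00011 and 8.15e-08). The fall was larger in Abcb10-null cells by 0.69 ± 0.138 (adjusted p = 0.000533). In Abcb10-null cells the step from day 2 to day 5 was 1.87-fold (adjusted p = 0.000737), and the step before it was 1.2-fold and did not pass the test (adjusted p = 0.105). Without replicate 2 of Abcb10-null day 2, at 94.2 CPM, that earlier step passed the test (-0.36, adjusted p = 0.015), as did the difference from WT at day 2 (-0.47, adjusted p = 0.0119). The day 0 difference was lost without replicate 4 of Abcb10-null cells (-0.15, adjusted p = 0.0884), with all 30 libraries in one fit (adjusted p = 0.339) and with all genes of at least 1 count tested (adjusted p = 0.0848). The step from day 2 to day 5 in WT, 1.26-fold (adjusted p = 0.0251), was lost without replicate 2 or 4 of day 2 or replicate 3 or 4 of day 5 (-0.32, -0.27, -0.33 and -0.34, adjusted p = 0.0512, 0.0912, 0.0555 and 0.0569), and without the 4 libraries that stand apart (-0.26, adjusted p = 0.0605) or with all genes of at least 1 count tested (adjusted p = 0.0846). The step from day 0 to day 2 in WT (-0.16, adjusted p = 0.0834) passed the test without replicate 4 of day 2 (-0.20, adjusted p = 0.0286).

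p27 (*Cdkn1b*, ENSMUSG00000003031, chromosome 6, 134920401-134925513, plus strand) binds cyclin E and CDK2 and holds cells out of S phase. WT libraries held 63.4, 56, 56.2, 73.3 and 54.6 CPM at day 0, 78, 73.4, 135, 77.1 and 103 CPM at day 2, and 242, 215, 221, 245 and 201 CPM at day 5. Abcb10-null libraries held 121, 126, 136, 133 and 136 CPM at day 0, 163, 98.9, 131, 146 and 125 CPM at day 2, and 297, 286, 281, 186 and 218 CPM at day 5. Before DMSO the lowest Abcb10-null library stood far above the highest of WT. The difference was 2.14-fold (log2 1.10 ± 0.0818, SE; adjusted p = 5.73e-09), the largest between genotypes of any member at day 0. The 5 against 5 libraries gave an exact permutation p of 0.00794, two-sided, the smallest such a design allows. The gap narrowed to 1.33-fold at day 2 (adjusted p = 0.0854) and 1.15-fold at day 5 (adjusted p = 0.177), with overlap at both days. Replicates 2 and 5 of Abcb10-null day 2, a subgroup over all genes, held 98.9 and 125 CPM. Replicates 1, 3 and 4 held 131 to 163 CPM. In WT *Cdkn1b* rose at each step, 1.6-fold and then 2.43-fold, and 3.88-fold in all (adjusted p = 0.00228, 0.000156 and 5.25e-09), the largest rise of any member. In Abcb10-null cells it was 1.04-fold higher at day 2 without passing the test (adjusted p = 0.728), and it rose 2.1-fold over 5 days (adjusted p = 4.94e-08). The change was smaller in Abcb10-null cells by 0.65 ± 0.204 between days 0 and 2 and by 0.88 ± 0.142 between days 0 and 5 (adjusted p = 0.0267 and 5.36e-05). At day 2 the excess in Abcb10-null cells passed the test without replicate 3 of WT or replicate 2 of Abcb10-null cells (0.57 and 0.50, adjusted p = 0.0159 and 0.0299). The call on the difference of changes between days 0 and 2 was lost without replicate 2 or 3 of WT day 0 (-0.615 and -0.61, adjusted p = 0.0507 and 0.0533).

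p21 (*Cdkn1a*, ENSMUSG00000023067, chromosome 17, 29090976-29100727, plus strand) is the CIP/KIP inhibitor that p53 induces after DNA damage. Its level in WT was 1.71, 2.46, 1.61, 0.956 and 1.66 CPM at day 0, 3.51, 4.45, 1.93, 3.92 and 3.33 CPM at day 2, and 2.07, 2.97, 2.16, 2.57 and 2.28 CPM at day 5. In Abcb10-null libraries it stood at 1.75, 2.39, 2.82, 2.82 and 2.29 CPM at day 0, 1.82, 1.84, 2.05, 2.15 and 1.88 CPM at day 2, and 2.91, 3.09, 2.1, 2.72 and 2.07 CPM at day 5. At day 2, 4 of 5 WT libraries stood above all of day 0, while no Abcb10-null library did. *Cdkn1a* rose 2.13-fold from day 0 to day 2 in WT (adjusted p = 0.00507) and was 1.21-fold lower at day 2 in Abcb10-null cells (adjusted p = 0.36). These changes differed by -1.39 ± 0.36 (adjusted p = 0.0097). At day 2 Abcb10-null cells held 1.9-fold less than WT (adjusted p = 0.0229), which was lost without replicate 1 or 2 of WT or replicate 1 of Abcb10-null cells (-0.90, -0.80 and -0.89, adjusted p = 0.0515, 0.0682 and 0.0592), and with all genes of at least 1 count tested (-0.90, adjusted p = 0.096). The later change between days 2 and 5 differed by 1.01 without passing the test (adjusted p = 0.0957), and passed it without replicate 3 of WT day 2 (1.20, adjusted p = 0.0391). Without replicate 2 of WT day 0 the level at day 5 in WT was called higher than at day 0 (0.75, adjusted p = 0.0355). *Cdkn1a* shares 7.68% of its exon bases with the predicted transcript AC167363.2 on the opposite strand.

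p18 (*Cdkn2c*, ENSMUSG00000028551, chromosome 4, 109660876-109667189, minus strand) is an INK4 inhibitor of CDK4 and CDK6. WT libraries held 73.9, 67.1, 58.9, 58.8 and 57.1 CPM at day 0, 97.8, 95.6, 121, 104 and 90.3 CPM at day 2, and 138, 107, 119, 133 and 125 CPM at day 5. Abcb10-null libraries held 64.9, 75, 80, 75.4 and 66.4 CPM at day 0, 48.8, 79.2, 69.7, 56.1 and 76.9 CPM at day 2, and 60.5, 62.7, 56.6, 51.9 and 62.9 CPM at day 5. The genotypes overlapped at day 0 and no longer overlapped at days 2 and 5. Replicates 2 and 5 of Abcb10-null day 2, a subgroup over all genes, held 79.2 and 76.9 CPM. Replicates 1, 3 and 4 held 48.8 to 69.7 CPM. *Cdkn2c* rose 1.68-fold by day 2 and 2.07-fold by day 5 in WT (adjusted p = 2.58e-05 and 7.09e-07). In Abcb10-null cells it was 1.06-fold lower at day 2 and 1.13-fold lower at day 5 than at day 0 (adjusted p = 0.643 and 0.0757). At day 5 all 5 of those libraries lay below all 5 of day 0 (exact permutation p = 0.00794, two-sided and not adjusted for the number of comparisons). The edgeR call was reached without replicate 1 or 5 of day 0 or replicate 5 of day 5 (log2 fold changes -0.22, -0.22 and -0.21, adjusted p = 0.0434, 0.0391 and 0.0485). In 8 other settings of the fit this fall was not called. Abcb10-null cells held 1.65-fold less than WT at day 2 and 2.06-fold less at day 5 (adjusted p = 0.00562 and 9.34e-06), and both calls held without any single library. The changes differed by -0.87 ± 0.177 up to day 2 and by -1.22 ± 0.127 up to day 5 (log2, SE; adjusted p = 0.00215 and 2.42e-07), the latter the largest difference of any member over those 5 days. At day 0 it was 1.14-fold higher in Abcb10-null cells (adjusted p = 0.0845), which was called without replicate 1 of WT (0.23, adjusted p = 0.0408). The step from day 2 to day 5 in WT, 1.23-fold (adjusted p = 0.0608), passed the test without replicate 3 of day 2 or replicate 2 of day 5 (0.39 and 0.36, adjusted p = 0.0231 and 0.0225).

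The other INK4 member, p19 (*Cdkn2d*, ENSMUSG00000096472, chromosome 9, 21288410-21291407, minus strand), was called in no comparison between the genotypes and in no interaction. Its level ranged from 68.6 to 90.3 CPM (WT) and from 75.8 to 90.1 CPM (Abcb10-null) at day 0, from 67.7 to 123 and from 75.7 to 114 CPM at day 2, and from 83.6 to 108 and from 66.7 to 108 CPM at day 5. The genotypes overlapped at each day, with log2 fold changes of -0.05 (95% confidence interval -0.21 to 0.12), -0.16 (-0.51 to 0.20) and -0.07 (-0.32 to 0.19). *Cdkn2d* rose 1.23-fold over 5 days in WT and 1.22-fold in Abcb10-null cells (adjusted p = 0.0181 and 0.0172). By the exact permutation test of the 5 against 5 libraries p was 0.0714 in WT and 0.222 in Abcb10-null cells, two-sided. The WT call was lost without replicate 4 or 5 of day 0 or replicate 1 of day 5 (0.21, 0.27 and 0.26, adjusted p = 0.076, 0.0522 and 0.0502), and the Abcb10-null call without replicate 5 of day 0 (0.25, adjusted p = 0.0539) or with all 30 libraries fitted together (adjusted p = 0.0669). With all genes of at least 1 count tested, neither held (adjusted p = 0.111 and 0.155). Replicate 4 of WT day 0, at 68.6 CPM, lay below the other 4 of its group, which held 85.4 to 90.3 CPM. Without replicate 1 or 2 of WT day 2, the 2 lowest of that group, the step from day 0 to day 2 in WT was called (0.37 and 0.34, adjusted p = 0.0206 and 0.0458).

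*E2f2* (ENSMUSG00000018983, chromosome 4, 136172394-136196057, plus strand) encodes an activator E2F that the retinoblastoma protein restrains and that is abundant in erythroid cells. Its level in WT was 44.7, 45.2, 38.4, 36.2 and 41.4 CPM at day 0, 79.1, 84.7, 56.5, 60.5 and 61 CPM at day 2, and 79.1, 74.7, 57, 75.1 and 106 CPM at day 5. In the Abcb10-null libraries it was 32.8, 38.5, 38.4, 37.1 and 41.1 CPM at day 0, 66.2, 42.4, 99.4, 78.6 and 44.6 CPM at day 2, and 33.2, 52.9, 52.6, 25.6 and 31.4 CPM at day 5. The genotypes overlapped at days 0 and 2, and at day 5 the Abcb10-null libraries overlapped with their own day 0 while the WT libraries stood above theirs. The rise to day 2 was 1.74-fold in WT and 1.8-fold in Abcb10-null cells (adjusted p = 0.000135 and 0.00372), without overlap in either. At day 5 *E2f2* was 1.99-fold above day 0 in WT (adjusted p = 2.36e-05) and 1.13-fold above it in Abcb10-null cells (adjusted p = 0.328), a difference of changes of -0.82 ± 0.217 on the log2 scale (adjusted p = 0.00588). Abcb10-null cells held 1.97-fold less than WT at day 5 (log2 -0.98 ± 0.189, adjusted p = 0.00152), with no overlap and a call that held without any single library. At day 2 the libraries parted by the subgroups seen over all genes. Abcb10-null replicates 1, 3 and 4 held 66.2 to 99.4 CPM, and replicates 2 and 5 held 42.4 and 44.6 CPM. In WT, replicates 1 and 2 held 79.1 and 84.7 CPM, and replicates 3 to 5 held 56.5 to 61 CPM. The fall from day 2 to day 5 in Abcb10-null cells, 1.59-fold (adjusted p = 0.0438), came with a spread from 42.4 to 99.4 CPM among the 5 libraries of day 2. It was lost without replicate 1, 3 or 4 of day 2 or replicate 1, 4 or 5 of day 5 (log2 fold changes -0.67, -0.48, -0.59, -0.61, -0.59 and -0.60, adjusted p = 0.068, 0.128, 0.0966, 0.104, 0.101 and 0.101).

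**Figure D3:**
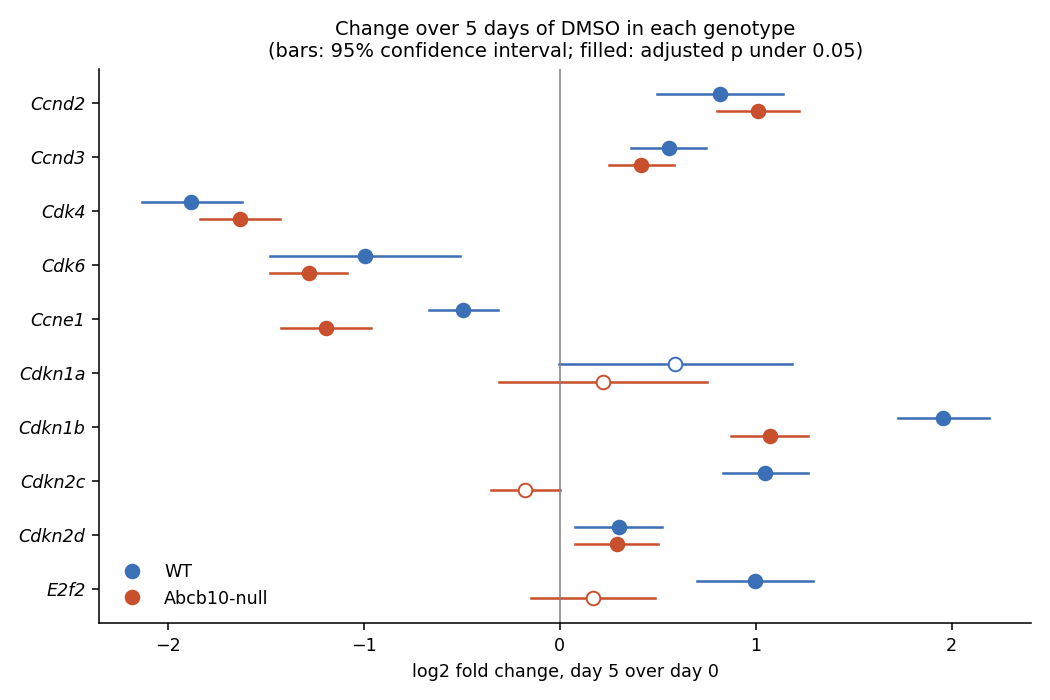
Log2 fold change of day 5 over day 0 (x axis) for each member (y axis) in WT (blue) and Abcb10-null (orange) cells; points are edgeR estimates from 5 against 5 libraries, bars are 95% confidence intervals and filled points have an adjusted p under 0.05. The genotypes part for *Ccne1* (-0.49 and -1.19), *Cdkn1b* (1.96 and 1.07), *Cdkn2c* (1.05 and -0.18) and *E2f2* (1.00 and 0.17), and lie close for *Cdkn2d* (0.30 and 0.29).

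The differences at day 5 stood beside others of the same libraries. All 10 erythroid markers were lower in Abcb10-null cells at day 5 (median log2 fold change -1.40), with summed levels that did not overlap with WT, and the part of this in the lower *Cdkn2c*, *E2f2*, *Ccne1* and *Ccnd3* was not tested. At day 0, where *Cdkn1b* differed most, 1 of the 9 erythroid markers tested was higher in Abcb10-null cells (*Tfrc*, against 19.7% of genes) and 2 were lower (*Alas2* and *Hemgn*, against 16.2%), with a median of 0.00386. Both neutrophil and monocyte markers tested there (*Csf1r* and *Lyz2*) were higher. All 6 markers of that list summed to 2.55 to 4.46 CPM in Abcb10-null libraries and 1.18 to 2.01 CPM in WT. Also higher were 1 of 3 megakaryocyte markers tested (*Itga2b*) and 2 of 3 stromal and epithelial markers tested (*Epcam* and *Pdgfrb*), with none lower. The part of these markers in the day 0 differences was not tested. In bulk RNA, fewer cells at a given stage and less transcript per cell cannot be told apart. With the 3 day 5 libraries that stand apart left out, 4 members were called between genotypes at day 5, against 42.3% of all genes in either direction, and 4 against 37.6% with them.

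Ratios of related members, taken within a library and per kilobase, describe the balance within each pair. *Cdk4* exceeded *Cdk6* 20.6-fold in WT at day 0 and 11.7-fold at day 5, and 15.5-fold and 12.1-fold in Abcb10-null cells. At day 5 of WT the log2 ratio of *Cdk6* over *Cdk4* was -3.55 ± 0.782 (SD, n = 5). It ran from -4.1 to -2.24, the latter in replicate 2, a library that stands apart, and the ratio without it is not given. *Ccnd3* exceeded *Ccnd2* 1.69-fold, 1.99-fold and 1.44-fold in WT at days 0, 2 and 5, and 2.01-fold, 1.34-fold and 1.32-fold in Abcb10-null cells, with *Ccnd2* ahead in 1 library of WT day 5 and 1 of Abcb10-null day 2. The WT library is again replicate 2, at a log2 ratio of -0.299 in a group at 0.521 ± 0.479 (SD, n = 5). In the INK4 pair, *Cdkn2d* exceeded *Cdkn2c* 2.28-fold at day 0 and 1.35-fold at day 5 in WT, and 1.93-fold and 2.65-fold in Abcb10-null cells. On the log2 scale that ratio at day 5 was 0.44 ± 0.114 in WT (SD, n = 5) and 1.41 ± 0.26 in the null cells, and the highest WT library (0.614) lay below the lowest Abcb10-null library (1.13). *Cdkn1b* exceeded *Cdkn1a* 29.2-fold at day 0 and 73.2-fold at day 5 in WT and 42.8-fold and 76.6-fold in Abcb10-null cells.

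**Figure D4:**
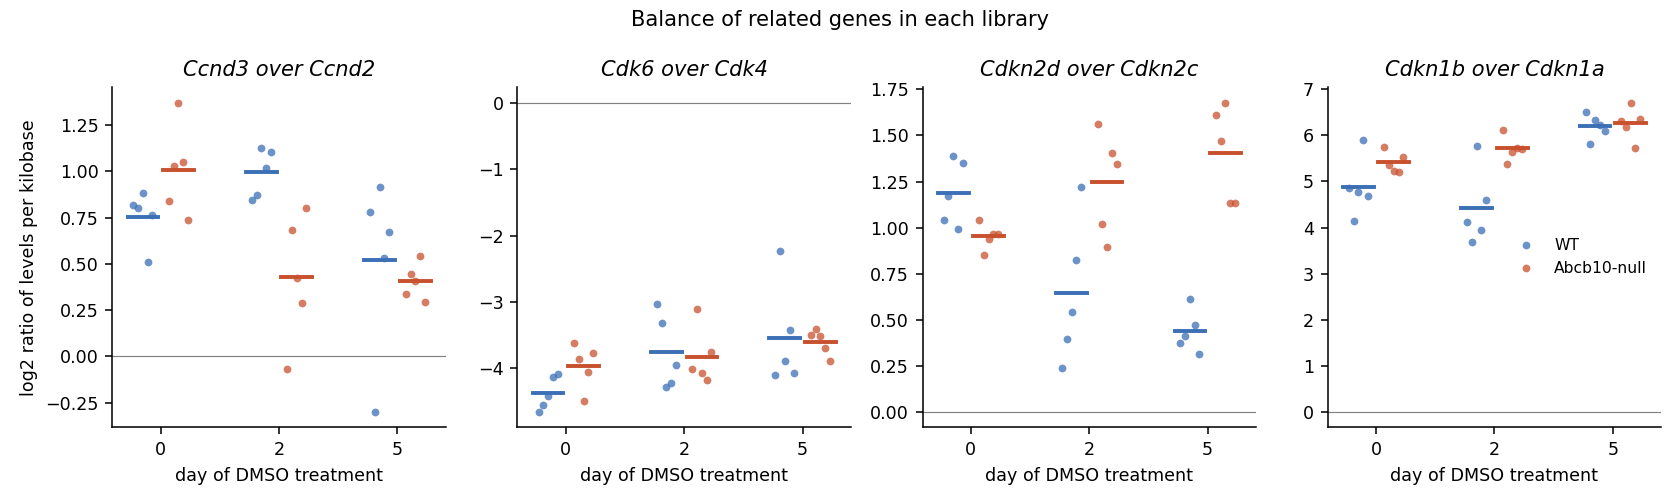
Log2 ratio of the levels per kilobase of 4 pairs of related members (y axis) by day of DMSO treatment (x axis); points are single WT (blue) and Abcb10-null (orange) libraries, 5 per group, bars are means and the grey line marks equal levels. In the third panel the *Cdkn2d* to *Cdkn2c* ratio of the 5 WT libraries at day 5 lies between 0.316 and 0.614 and that of the 5 Abcb10-null libraries between 1.13 and 1.68.

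Among 12138 genes, those whose log2 CPM followed each member most closely over the 30 libraries were listed by Pearson correlation, as a description in which the points share genotype, day and library. *Cdk4* was followed most closely by *Psmb3* and *Sod2* (r = 0.986 for each), *Ccne1* by *Eme1* (0.965) and *Uhrf1* (0.959), and *Cdkn1b* by *Mpp5* (0.961) and *Fam8a1* (0.957). *Cdk6* was closest to *Myh10* (0.94) and *Hsp90ab1* (0.927), *Cdkn2c* to *Psd* (0.923) and *Cldn13* (0.903), and *E2f2* to *Tnk2* (0.914) and *Alad* (0.902), the last an enzyme of heme synthesis. *Ccnd2* was closest to *Csnk1a1* (0.911) and *Kmt5b* (0.91), *Ccnd3* to *Prmt2* (0.899) and *Mad2l1bp* (0.894), *Cdkn2d* to *Tmem256* (0.853) and *Gm36738* (0.814), and *Cdkn1a*, with the fewest counts, to *Casz1* (0.77) and *Rnf31* (0.736).

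Around the members, the retinoblastoma family and the remaining E2F and DP factors moved in both directions during differentiation of WT cells. These lists were drawn up with earlier results of these data known, and their counts stand beside the shares of all genes. Over 5 days in WT 36.5% of genes rose and 34.7% fell. At day 5, 19.8% were higher and 17.8% lower in Abcb10-null cells. Of 12 tested, 6 rose over 5 days and 4 fell (median log2 fold change 0.32, beside 0.0229 for all genes), led by *Rb1*, the founding pocket protein, which rose from 37 ± 2.28 to 218 ± 72.4 CPM (SD, n = 5; 6.19-fold, adjusted p = 9.46e-08). Also called were *Tfdp2*, which rose 3.3-fold, and *Tfdp1*, which fell 3.05-fold. At day 5 none of the 12 was higher and 5 were lower in Abcb10-null cells (median -0.264, beside -0.0164 for all genes), among them the pocket protein *Rbl2* (1.93-fold lower, adjusted p = 0.00148) and the repressors *E2f8* and *E2f7* (1.92-fold and 1.78-fold). Of the 3 remaining CDK inhibitors, *Cdkn2b* (p15) rose 4.26-fold in WT and was 1.88-fold lower in Abcb10-null cells at day 5 (adjusted p = 1.59e-06 and 0.00831), while *Cdkn2a* fell 1.81-fold and *Cdkn1c* 1.74-fold in WT. Of 7 other G1/S cyclins, kinases and activators tested, 5 fell in WT, with the phosphatase *Cdc25a* falling 2.44-fold and the CDK-activating pair *Cdk7* and *Ccnh* 1.89-fold and 1.84-fold. At day 5, 4 were higher and none lower in Abcb10-null cells, *Cdc25a* by 1.71-fold (adjusted p = 0.00237).

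Of the genes that E2F drives in S phase, 19 of 20 fell in WT over 5 days (median -1.39) and 19 of 20 in Abcb10-null cells (median -1.25), with the helicase subunits *Mcm3* (4.08-fold) and *Mcm5* (3.54-fold) and the GINS subunit *Gins2* (3.68-fold) leading in WT. At day 5, 5 of the 20 were lower (against 17.8% of genes) and 1 was higher (against 19.8%) in Abcb10-null cells (median -0.157). The lowest, *Tk1*, the thymidine salvage kinase, stood at 11.6 ± 4.78 against 32 ± 8.33 CPM (adjusted p = 0.000753). *Cdc6* and *Orc1*, which load the helicase at origins, were 1.7-fold and 1.68-fold lower. Of 10 proliferation markers 5 were lower and 2 higher (median -0.473), and among those lower *Foxm1*, *Ccnb2* and *Mybl2* were 1.66-fold, 1.64-fold and 1.63-fold below WT. Within WT these markers did not move as one over 5 days, with 2 rising and 3 falling (median -0.109).

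In the Myc network, whose MAD members *Mxd1*, *Mxd3*, *Mxd4* and *Mxi1* oppose Myc at shared sites, 4 of 8 genes tested rose and 2 fell in WT over 5 days (median 0.979). Among all genes 36.5% rose and 34.7% fell over those days. *Mxd1* rose 12-fold, *Mxd4* 8.05-fold and *Mxi1* 2.78-fold (adjusted p = 5.25e-09, 1.16e-10 and 7.88e-09). At day 5, 4 of these 8 were lower and 1 higher in Abcb10-null cells (median -0.235), with *Mxd1* 2.96-fold, *Mxd3* 2.43-fold and *Mxd4* 1.84-fold lower. Among all genes 17.8% were lower and 19.8% higher at that day, and the lists that follow stand beside the same shares. Of 17 p53 pathway genes tested other than *Cdkn1a*, 12 rose and 2 fell in WT over 5 days (median 0.612), led by *Trp53inp1* (52.4-fold) and *Btg2* (18.9-fold), both also tied to cell cycle arrest, with *Aen* falling 6.02-fold. At day 5, 3 were higher and 5 lower in Abcb10-null cells (median -0.151), *Btg2* by 2.28-fold (adjusted p = 2.63e-05) and, in the other direction, *Pmaip1* and *Aen* by 2.2-fold and 2.09-fold. Of 9 ubiquitin ligase parts that turn over G1 cyclins and inhibitors, 2 rose and 5 fell in WT (median -0.29), among them *Skp2* and *Cks1b*, which target p27 for destruction (2.45-fold and 2.26-fold, adjusted p = 2.28e-08 and 8.99e-07), while *Ambra1*, a D cyclin ligase adaptor, rose 1.77-fold. At day 5, 1 was higher and 2 were lower in Abcb10-null cells (median -0.154), the scaffold *Cul1* 1.47-fold higher and *Rbx1* and *Fbxw7* 1.37-fold and 1.35-fold lower. Of the 5 MuvB core genes of the DREAM complex 3 rose in WT (*Lin52* 1.9-fold, *Lin9* 1.59-fold and *Lin54* 1.55-fold) and 1 fell (median 0.637), and at day 5 1 was higher and 1 lower in Abcb10-null cells (median -0.263), *Lin54* by 1.27-fold and *Lin37* by 1.64-fold.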

How the data were processed

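RNA was sequenced from 30 MEL cell libraries after depletion of ribosomal and globin RNA. Per the labels and the study's methods, the authors aligned reads to GRCm38 with STAR 2.6.1b and deposited raw counts per Ensembl gene from featureCounts 1.6.3, with no normalization, and whether the counting used strand is not given in the sources used here. Groups came from the labels. The 10 members and all gene lists were chosen with earlier results of these data known.

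From the deposited counts, edgeR 4.0.16 (R 4.3.3, limma 3.58.1) was run with TMM factors, its own filter on low counts and its quasi-likelihood test, on the libraries of the groups compared only. P-values were adjusted by Benjamini-Hochberg over all genes tested, with a threshold of 0.05. Differences of change were fitted as an interaction of genotype and day. CPM values use TMM factors over all 30 libraries, and CPM per kilobase divides by the union of exons. Genes of the lists were named by a rule: up to 3 per list and comparison, those called with the largest change and a mean of at least 1 CPM. Likeness is Pearson's r over log2 CPM with a prior count of 2, and 2 genes were named per member. Single values were also compared by an exact two-sided permutation test of 5 against 5 libraries, whose smallest p is 0.00794 and which was not adjusted for the number of comparisons. Promoter and annotation sequences are from RefSeq on GRCm38.p6, and gene positions from GENCODE on GRCm38. The fits were also run on simulated counts with the same dispersion for every gene and no subgroups of libraries, unlike the day 2 libraries.

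Alternatives were DESeq2 1.42.0, DESeq2 size factors, upper quartile factors, 2 other filters on low counts, 1 fit of all 30 libraries, a replicate block and leaving out each library. Of the counts, 0.0116% fell in 37 identifiers absent from the annotation, and 9219 listed genes had no count.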

Additional observations from a re-analysis of the deposited data

Results flagged for a closer look

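In 60 groups of 5 values (10 members in 6 groups), 3 held a library farther from its nearest neighbour than Dixon's 95% criterion allows, which chance gives in about 1 of 20 groups. *Cdkn2d* was low in replicate 4 of WT day 0, at 68.6 CPM. *Cdk6* was high in replicate 2 of Abcb10-null day 2, at 169 CPM, and in replicate 2 of WT day 5, at 109 CPM, both libraries that stand apart from their groups over all genes. Whether the same difference in those libraries underlies both was not tested.

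The change over time differed between the genotypes in 8 of 30 values, by the edgeR interaction test with adjusted p-values. Of all genes 22.8% were called between days 0 and 2, 4.71% between days 2 and 5 and 31.5% between days 0 and 5. The interactions share libraries, so the 30 values are not separate. Between days 0 and 2 the change was lower in Abcb10-null cells for *Cdkn1a* (-1.39, adjusted p = 0.0097), *Cdkn2c* (-0.87, adjusted p = 0.00215) and *Cdkn1b* (-0.65, adjusted p = 0.0267) and higher for *Ccnd2* (0.81, adjusted p = 0.00256), on the log2 scale. Between days 0 and 5 it was lower for *Cdkn2c* (-1.22, adjusted p = 2.42e-07), *Cdkn1b* (-0.88, adjusted p = 5.36e-05), *E2f2* (-0.82, adjusted p = 0.00588) and *Ccne1* (-0.69, adjusted p = 0.000533).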

How the results depend on the processing

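Of 120 member values, the direction and call were kept in 115 with DESeq2 (5 calls gained), 119 with DESeq2 size factors, 113 with upper quartile factors, 106 with all genes of at least 1 count (9 calls lost), 117 with a minimum of 10 counts per library, 104 when the 30 libraries shared 1 fit (5 lost, 11 gained) and 1410 of 1500 with 1 library left out. Leaving out the 4 libraries that stand apart, a choice made after seeing the data, kept 87 of 100. For every value below that changed, the cause was not tested.

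Members called between genotypes at day 0 numbered 3 with genes of at least 1 count, 2 with all 30 libraries (1584 genes in all, against 4642 with the main settings) and 3 to 6 with 1 library left out. At day 2 they numbered 4 with DESeq2, 4 with upper quartile factors, 5 with all 30 libraries, 5 without the libraries that stand apart and 1 to 5 with 1 library left out (2665 to 5357 genes in all). The share of all genes was 36.7% with DESeq2 and 40.6% without the libraries that stand apart, against 31.8% with the main settings. Of the members 1 was called without replicate 1 or 2 of WT or replicate 1 of Abcb10-null cells, and 5 without replicate 2 of Abcb10-null cells. The fewest genes passed without replicate 1 of Abcb10-null cells. From day 0 to day 2 in Abcb10-null cells the members called numbered 5 without the libraries that stand apart (48.5% of all genes, against 43.1% with the main settings) and 3 to 5 with 1 left out. For the interaction of days 2 and 5 they numbered 1 with DESeq2 (1275 genes in all), 1 with genes of at least 1 count, 3 with all 30 libraries (1705 genes), 0 to 1 with 1 left out (275 to 1352 genes), and 1828 genes passed without the libraries that stand apart. The share of all genes was 9.14% with DESeq2 and 12.6% without the libraries that stand apart, against 4.71% with the main settings.

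Some log2 values turned sign, none of them called with either sign. With upper quartile factors they were -0.040 for *Cdk4* and -0.015 for *Cdk6* at day 2 and -0.069 for *E2f2* in the interaction of days 0 and 2 (-0.015 with at least 10 counts). With genes of at least 1 count, *Cdkn2d* in the interaction of days 0 and 5 was 0.016. Without the libraries that stand apart, *Cdk6* was -0.22 at day 2, 0.15 at day 5, 0.39 in the interaction of days 2 and 5 and 0.070 in that of days 0 and 5. With 1 library left out, the difference between genotypes ran from -0.036 to 0.14 for *Cdk4* and -0.22 to 0.14 for *Cdk6* at day 2, and from -0.14 to 0.034 and -0.28 to 0.13 at day 5. *Cdkn2d* from day 2 to 5 in WT ran from -0.030 to 0.17, and in Abcb10-null cells *Cdkn1b* ran from -0.012 to 0.15 and *Cdkn2c* from -0.16 to 0.012 up to day 2, and *Cdkn2c* from -0.16 to 0.011 after it. Interactions of days 0 and 2 ran from -0.19 to 0.0011 for *Cdkn2d*, -0.10 to 0.012 for *Ccnd3*, -0.31 to 0.021 for *Cdk6* and -0.20 to 0.15 for *E2f2*. Those of days 2 and 5 ran from -0.021 to 0.19 for *Cdkn2d* and -0.33 to 0.095 for *Cdk6*, and those of days 0 and 5 from -0.053 to 0.064 and -0.40 to 0.036.

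Same-numbered libraries of different groups did not in general deviate together (75 pairs, correlations -0.263 to 0.432, median -0.0159), so numbers were not taken to pair libraries. Some did: replicate 2 of WT day 5 correlated with replicate 2 of WT day 2 (0.432) and of Abcb10-null day 2 (0.346). At day 2, replicate 5 of the genotypes correlated at 0.233. With a replicate block 112 of 120 values were kept, 5 calls were lost and 2 gained. Those lost were *Ccnd3* and *Ccne1* at day 0 (adjusted p = 0.068 and 0.0578), *Cdkn1a* at day 2 (0.0543) and *Ccnd3* and *E2f2* from day 2 to day 5 in Abcb10-null cells (0.0644 and 0.0562). With the block, members called between genotypes numbered 3 at day 0 and 1 at day 2, and *Cdk6* at day 2 was -0.0058.

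Upper quartile factors moved the median log2 change of all genes from day 0 to day 2 in WT from 0.00957 to 0.114. Counts of *Cdkn1a*, 13 to 78 per library, limit what could be seen of it.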
